A study of Mus musculus with 19 samples.

Results

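A set of germ-cell RNA-binding regulators was followed through meiotic initiation in the mouse testis. They are Meioc, Ythdc2, Rbm46, Dazl, Boll, Cpeb1, Ybx2 and Dnd1, which makes 8 of the 22419 genes in the deposited expression tables. The genes were picked by symbol for the kind of protein they encode, with earlier results of these data known. From these same libraries the study had reported Meioc, Ythdc2 and Dazl as bound and upregulated by the factor STRA8. Counts of bound or higher genes among the 8 are therefore not independent of the choice. All 8 were over 1 TPM (a transcript level corrected for length and library size) in at least 1 library and were among the 12464 genes tested.

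RNA was sequenced from preleptotene spermatocytes, the germ cells that are about to enter or are entering meiotic prophase. The mice were C57BL/6 males given WIN18,446, which blocks retinoic acid synthesis, from postnatal day 2 to day 8 and then retinoic acid on day 9, and testes were taken 6.75 days later. All 7 RNA-seq libraries came from mice carrying Ddx4-Cre and Rosa26-tdTomato, a reporter that Cre switches on in the germ line and that was used to sort the cells. The 3 Stra8-deficient libraries came from Stra8-/- mice. The 2 low-STRA8 and 2 high-STRA8 libraries came from Stra8+/- mice, so that no group carried 2 intact Stra8 alleles, and low or high was assigned from STRA8 staining of testis sections. STRA8 binding was measured with a FLAG antibody in whole synchronized testes, not sorted cells, of 3 Stra8 FLAG/FLAG and 3 wild-type mice, with 1 mouse per library. The tag marks the longer STRA8 isoform only, and spermatogonia in such testes can also make STRA8. Each p-value sets a difference between groups against the spread between libraries of a group, estimated over these 7 libraries, and covers nothing wider.

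STRA8 is the retinoic acid-induced factor that germ cells need to begin meiosis. The 8 proteins studied here act after transcription. MEIOC works with the RNA helicase YTHDC2, and RBM46 is needed for the same step, in which mRNAs of the mitotic program are lowered and meiotic prophase is maintained. DAZL and BOLL belong to the DAZ family, which bind 3' untranslated regions and control translation and stability of germ-cell mRNAs. CPEB1 governs cytoplasmic polyadenylation, YBX2 packages and stores mRNAs, and DND1 works with NANOS proteins and the CCR4-NOT deadenylase in earlier germ cells.

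The 7 RNA-seq libraries held 25049625 to 30015072 estimated counts, and edgeR's common biological coefficient of variation was 0.173 with 4 residual degrees of freedom. Stra8 itself stood at 18, 22.8 and 5.16 TPM in Stra8-deficient, 315 and 236 TPM in low-STRA8 and 1099 and 1248 TPM in high-STRA8 libraries, in the order of the labels. Germ-cell and preleptotene markers (7 of 7 over 1 TPM), a list that includes Stra8 itself, summed to 3281 to 4736 TPM in Stra8-deficient libraries. Their sums were 2578 to 2692 TPM in low-STRA8 and 5885 to 7287 TPM in high-STRA8 libraries. Of 10 genes marking pachytene or later germ cells, 2 exceeded 1 TPM in some library, and Pgk2 and Adam3 were at 0 in all 7. Markers of undifferentiated spermatogonia (8 of 10 over 1 TPM, with the defining genes Gfra1 and Nanos2 at or below 1 TPM) summed to 78.6 to 94.6 TPM in Stra8-deficient, 35.6 to 37.7 TPM in low-STRA8 and 40.1 to 44.6 TPM in high-STRA8 libraries. Sertoli markers (8 of 8 over 1 TPM) summed to 402 to 632, 96 to 369 and 529 to 577 TPM in the same order, and macrophage and blood markers to 7.93 to 26, 41.9 to 46.3 and 1.54 to 7.68 TPM. In low-STRA8 libraries most of that last sum came from the hemoglobin genes Hbb-bs (22.9 and 27 TPM) and Hba-a1 (17.6 and 18.1 TPM). The other genes of that list were at or below 0.684 TPM there and highest in Stra8-deficient replicate 3. The part of these cells in the results below was not tested. In bulk samples of this kind, fewer cells of a type and less RNA per cell cannot be told apart.

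STRA8-FLAG binding was found at the promoters of 7 of the 8 genes, all but Dnd1. A gene was called STRA8-bound when at least 2 of 3 FLAG/FLAG libraries had a peak summit within 1 kb of one of its protein-coding transcription start sites (TSSs) and no wild-type library did, which held for 22.5% of expressed genes. Meioc, Rbm46, Dazl, Boll, Cpeb1 and Ybx2 had such a summit in 3 of 3 FLAG/FLAG libraries, which held for 11.9% of expressed genes. Ythdc2 had one in libraries 1 and 2 but not in library 3. For Ythdc2 the call ended with a 500 bp window and without FLAG/FLAG library 1 or 2, which left 6 bound genes. No wild-type library had a summit within 10 kb of a protein-coding TSS of any of the 8 genes, and no library of either genotype had one within 10 kb of the TSS of Dnd1. The rest of the longer genes was not searched. Libraries 1 and 2 were made with one kit and library 3 with another, and they held 5687, 3299 and 2035 summits, against 798, 45 and 164 in the wild-type libraries of the same batches.

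Meioc (ENSMUSG00000051455), on the plus strand of mm10 with its TSS at position 102665588 of chromosome 11, had the highest scores of the 8. Its summits scored 134, 108 and 44.5 (the score is -log10 p from the peak caller), which put them in the top 0.721%, 0.697% and 7.42% of summits of libraries 1, 2 and 3. They lay 226, 282 and 24 bases inside the gene. Dazl (ENSMUSG00000010592, chromosome 17, minus strand) scored 78.4, 35.4 and 20.2, with a weaker second summit of 11.6 in library 3. Boll (ENSMUSG00000025977, chromosome 1, minus strand) scored 80.7, 43.1 and 13.4, with a second summit of 9.48 in library 3. The best summits of these 3 genes thus lay in the top 2.76% of library 1.

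Rbm46 (ENSMUSG00000033882, chromosome 3, minus strand) scored 29.4, 40.6 and 21.9, with all 3 summits between 21 and 60 bases past its upstream TSS. Cpeb1 (ENSMUSG00000025586, chromosome 7, minus strand) scored 31.3, 31.7 and 28.5 in its first intron, with second summits nearer the TSS in libraries 2 and 3 that scored 22.7 and 12.8. Ybx2 (ENSMUSG00000018554, chromosome 11, plus strand) had the lowest scores of the genes bound in 3 libraries, with 18.2, 7.05 and 10.7. Its summit in library 2 was ranked 3174 of 3299. Ythdc2 (ENSMUSG00000034653, chromosome 18, plus strand) scored 17.5 in both library 1 and library 2, and its summits lay 946 and 843 bases past the TSS, at the edge of the 1 kb window. Dnd1 (ENSMUSG00000044595) lies on the minus strand of chromosome 18.

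**Figure D1:**
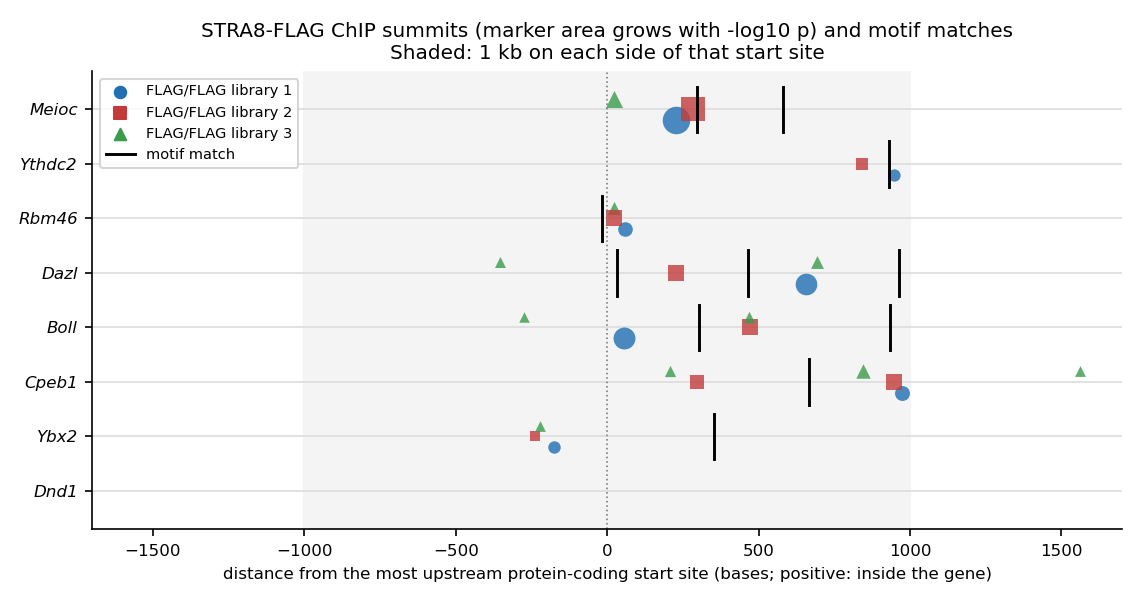
FLAG/FLAG summits and CNCCTCAG matches at the 8 genes, by distance in bases from the most upstream protein-coding TSS (positive is inside the gene); marker shape and color give the library, marker area grows with -log10 p, black ticks are motif matches and the shaded band spans 1 kb on each side of that TSS. Meioc carries the largest markers, with scores of 134 and 108 and a match 14 bases from the summit of library 2, while Ybx2 has a match 529 bases from its nearest summit and Dnd1 has neither summit nor match.

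Sequences under summits are given here for Meioc, Dazl, Cpeb1 and Ybx2, genes that differ in score and in expression. Each of the next 4 lines is the 100 bases centered on a summit, read 5' to 3' on the gene's strand from mm10, at chr11:102665820-102665919 for Meioc in library 2, chr17:50292928-50293027 for Dazl in library 1, chr7:81453762-81453861 for Cpeb1 in library 2 and chr11:69935569-69935668 for Ybx2 in library 1. Capitals mark a match to CNCCTCAG or, on the other strand, CTGAGGNG, the motif that the study derived from these same ChIP libraries, so that it is not independent of the summits.
Meioc: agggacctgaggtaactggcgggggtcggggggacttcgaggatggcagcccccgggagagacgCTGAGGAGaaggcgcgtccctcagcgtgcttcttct
Dazl: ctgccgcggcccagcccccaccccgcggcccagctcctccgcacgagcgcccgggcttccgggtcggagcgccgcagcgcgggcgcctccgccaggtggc
Cpeb1: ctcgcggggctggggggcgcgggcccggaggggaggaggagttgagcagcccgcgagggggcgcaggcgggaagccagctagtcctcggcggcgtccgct
Ybx2: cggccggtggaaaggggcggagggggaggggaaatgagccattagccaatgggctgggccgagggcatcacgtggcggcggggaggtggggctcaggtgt
In these lines the Meioc window holds a match and the other 3 do not. The windows of Meioc in libraries 1 and 3, not printed, hold none. The printed Meioc window overlaps the end of a coding exon and the following intron, those of Dazl and Cpeb1 lie in introns, and that of Ybx2 lies upstream of its first TSS.

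In 2 kb around the TSS, Dazl held 3 matches, Meioc and Boll 2 each, Ythdc2, Rbm46, Cpeb1 and Ybx2 1 each and Dnd1 none. At least 1 match was present at 43.4% of all protein-coding genes, 46.6% of expressed genes and 61.8% of STRA8-bound genes, and at least 3 matches, as in Dazl, at 2.8% of all. In the 100 bases around a summit, a match was present in 9.65%, 13.9% and 15.5% of all summits of libraries 1, 2 and 3. Among the 8 genes, matches lay so close to a summit in Meioc (library 2), Rbm46 (libraries 2 and 3) and Ythdc2 (library 1). The next lines give 30 bases around the match nearest to a summit in the other genes and in Rbm46, to show how the distance differs, at chr3:82876481-82876510 for Rbm46, chr17:50293153-50293182 for Dazl, chr1:55363148-55363177 for Boll, chr7:81454072-81454101 for Cpeb1 and chr11:69936137-69936166 for Ybx2, again in mm10 and on the gene's strand with the match in capitals.
Rbm46: ggcacgctaggCTGAGGCGaagagcccgtg
Dazl: ctacaccagcaCTGAGGGGttgcggggaga
Boll: gggcagccccgCTGAGGAGagcggcccctc
Cpeb1: gccgcggagacCCCCTCAGgctggggcggc
Ybx2: gctgctgggacCCCCTCAGcgcccggccct
The nearest summit was 30 bases away in Rbm46, 186 in Dazl, 158 in Boll, 170 in Cpeb1 and 529 in Ybx2, where the match lies in a coding exon. In Meioc and Ythdc2 it was 14 and 10 bases away. In 32851 RefSeq promoters of 300 bases (GRCm38.p6), 7.94% held a match. There, 6 of the 8 genes were listed, and Rbm46, Dazl and Ybx2 had a match.

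The mRNA levels of the 8 genes are shown by library in the plot of TPM by group.

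**Figure D2:**
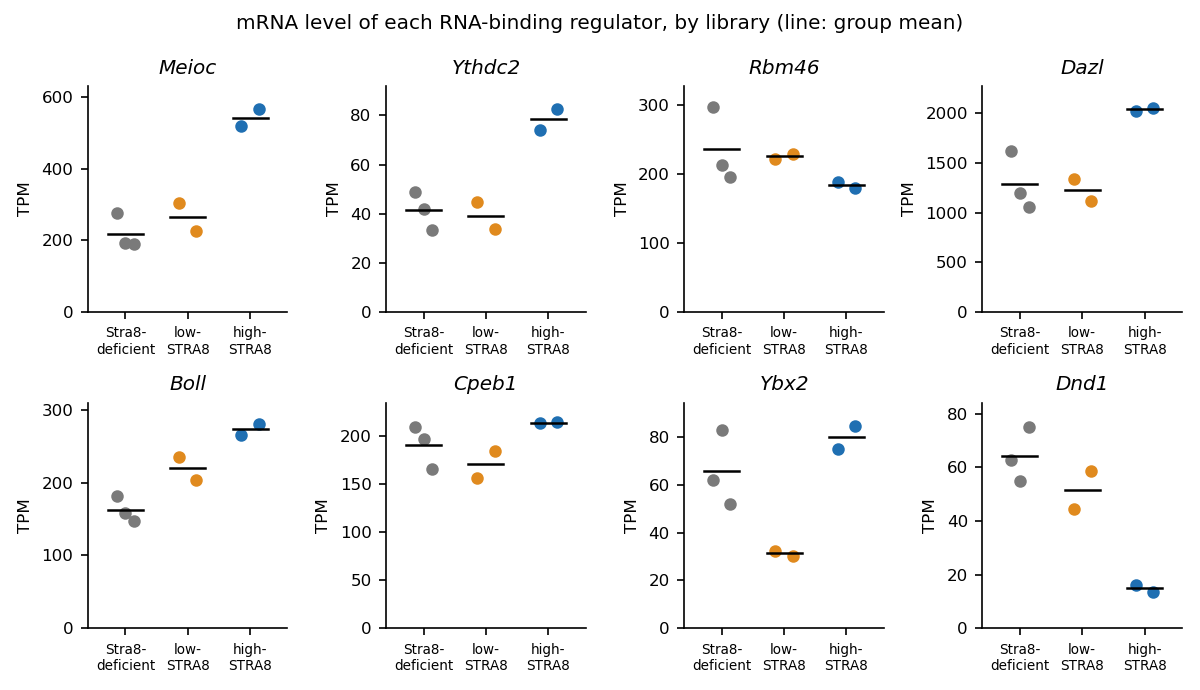
TPM of each of the 8 genes in the 7 libraries by group (Stra8-deficient, low-STRA8, high-STRA8); points are libraries, lines are group means and each panel has its own scale from 0. Meioc, Ythdc2, Dazl and Boll are highest in both high-STRA8 libraries, Ybx2 is lowest in both low-STRA8 libraries and Dnd1 is lowest in both high-STRA8 libraries.

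High-STRA8 cells, taken after meiotic initiation, were compared with Stra8-deficient cells, which do not enter meiosis. The difference was tested with edgeR's quasi-likelihood test on estimated counts over all 12464 genes, and adjusted p-values are from that fit with Benjamini-Hochberg adjustment. Of the 8 genes, 4 were higher in high-STRA8 cells (Meioc, Ythdc2, Dazl and Boll), against 18.8% of all genes tested. Dnd1 was lower, against 18.3% of all genes. The remaining 3, Rbm46, Cpeb1 and Ybx2, did not pass the threshold of 0.05.

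Meioc was at 275, 192 and 188 TPM in Stra8-deficient libraries, 305 and 226 TPM in low-STRA8 libraries and 519.8 and 565 TPM in high-STRA8 libraries. Both high-STRA8 libraries lay above all others, while low-STRA8 and Stra8-deficient libraries overlapped. From 219 ± 49.3 TPM (SD, n = 3), Meioc rose to 542 ± 31.9 TPM (SD, n = 2) in high-STRA8 cells, which is 2.63-fold (log2 fold change 1.39, SE 0.173, adjusted p = 0.000609 by edgeR). Against low-STRA8 cells (266 ± 56.3 TPM, SD, n = 2) it rose 1.9-fold (log2 fold change 0.93, SE 0.193, adjusted p = 0.00711 by edgeR). That second call was lost without high-STRA8 replicate 2 (adjusted p = 0.0544, edgeR). By mean TPM, Meioc ranked 785 of 22419 genes in Stra8-deficient cells and 242 in high-STRA8 cells.

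Ythdc2, the helicase partner of MEIOC, was at a lower level throughout, with 48.7, 41.9 and 33.5 TPM in Stra8-deficient, 44.8 and 33.6 TPM in low-STRA8 and 74.1 and 82.7 TPM in high-STRA8 libraries. The 2 high-STRA8 libraries were again above all others, and the other 2 groups overlapped. Ythdc2 rose 2.02-fold against Stra8-deficient cells (log2 fold change 1.02, SE 0.154, adjusted p = 0.00149, edgeR) and 1.88-fold against low-STRA8 cells (log2 fold change 0.91, SE 0.172, adjusted p = 0.00486, edgeR). Both calls held in each of the 16 alternatives run. Between high- and low-STRA8 cells the fold changes of all genes moved with transcript length, and Ythdc2 lies in the longest of 5 length classes, whose median log2 fold change was 0.42 in that comparison and 0.04 against Stra8-deficient cells. The part of length in the result was not tested. The ratio of Meioc to Ythdc2, both in TPM, was 5.65, 4.59 and 5.61 in Stra8-deficient, 6.82 and 6.72 in low-STRA8 and 7.01 and 6.83 in high-STRA8 libraries.

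Rbm46, which encodes a germ-cell RNA-binding protein needed for meiosis, did not follow Meioc and Ythdc2. Its levels were 297, 213 and 196 TPM in Stra8-deficient, 222 and 229 TPM in low-STRA8 and 188 and 179 TPM in high-STRA8 libraries, so that the high-STRA8 libraries were the lowest. The log2 fold change against Stra8-deficient cells was -0.28 (95% interval -0.64 to 0.08, adjusted p = 0.203, edgeR), an interval that does not reach the increase of Meioc or Ythdc2. Against low-STRA8 cells it was -0.41 (95% interval -0.80 to -0.02, adjusted p = 0.0874, edgeR), and this difference passed the threshold when Stra8-deficient replicate 1 was left out (adjusted p = 0.0129) or only the 2 groups were fitted (adjusted p = 0.0237). Its 2 main transcripts, from TSSs nearly 10 kb apart, were about equally abundant. The transcript from the upstream, STRA8-bound TSS made up 44% to 56.1% of Rbm46 TPM over the 7 libraries, with 117 ± 14.3 TPM (SD, n = 3) in Stra8-deficient and 81.4 ± 2.27 TPM (SD, n = 2) in high-STRA8 cells.

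Dazl was the most abundant of the 8, with 1621, 1194 and 1058 TPM in Stra8-deficient, 1340 and 1117 TPM in low-STRA8 and 2027 and 2057 TPM in high-STRA8 libraries. The high-STRA8 libraries did not overlap the others. Dazl rose 1.66-fold against Stra8-deficient cells (log2 fold change 0.73, SE 0.158, adjusted p = 0.00762, edgeR) and 1.54-fold against low-STRA8 cells (log2 fold change 0.62, SE 0.176, adjusted p = 0.0237, edgeR). The first call was lost without high-STRA8 replicate 2 (adjusted p = 0.0522). The second was lost without low-STRA8 replicate 2 (0.0986), high-STRA8 replicate 1 (0.0847) or high-STRA8 replicate 2 (0.105). By mean TPM, Dazl ranked 89 of all genes in the Stra8-deficient group, 96 in the low-STRA8 group and 42 in the high-STRA8 group.

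Boll, the DAZ family member known for a role in later germ cells, was higher in low-STRA8 than in Stra8-deficient cells. It was at 182, 158 and 147 TPM in Stra8-deficient, 235 and 204 TPM in low-STRA8 and 266 and 280.3 TPM in high-STRA8 libraries, and no group overlapped another. Boll rose 1.83-fold in high-STRA8 cells (log2 fold change 0.87, SE 0.0882, adjusted p = 0.000249, edgeR) and 1.56-fold in low-STRA8 cells (log2 fold change 0.64, SE 0.0885, adjusted p = 0.00294, edgeR), both against Stra8-deficient cells. Between high- and low-STRA8 cells its log2 fold change was 0.23 (95% interval 0.00 to 0.45, adjusted p = 0.0972, edgeR). Boll lies in the shortest of the 5 length classes, whose median log2 fold change was 0.27 between low-STRA8 and Stra8-deficient cells and -0.34 between high- and low-STRA8 cells. The part of length in these results was not tested.

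For Boll, 3 transcripts were estimated, and they did not move in step. The transcript with the most downstream TSS was at 80.3, 102 and 91.7 TPM in Stra8-deficient, 127 and 107 TPM in low-STRA8 and 168 and 193 TPM in high-STRA8 libraries, higher with each group and with no overlap between groups. A second transcript was at 56, 35.7 and 36 TPM, 74.8 and 73.9 TPM, and 69.5 and 45.2 TPM in the same order, so that its high-STRA8 libraries overlapped Stra8-deficient ones. Transcript levels are estimates that share reads over common exons and were not tested. The ratio of Dazl to Boll, both in TPM, was 8.91, 7.56 and 7.22 in Stra8-deficient, 5.7 and 5.48 in low-STRA8 and 7.62 and 7.34 in high-STRA8 libraries.

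Cpeb1, which controls poly(A) tails of stored mRNAs, was at 209, 196 and 165 TPM in Stra8-deficient, 156 and 184 TPM in low-STRA8 and 213 and 214 TPM in high-STRA8 libraries. The high-STRA8 libraries were the highest, by a small margin. No comparison passed the threshold for Cpeb1, with log2 fold changes of 0.27 (95% interval -0.01 to 0.55, adjusted p = 0.122) against Stra8-deficient cells and 0.24 (95% interval -0.07 to 0.54, adjusted p = 0.198) against low-STRA8 cells by edgeR. Between 95.6% and 100% of Cpeb1 TPM came from 1 transcript.

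Ybx2, a germ-cell Y-box protein that binds stored mRNAs, was the only one of the 8 whose level was lowest in low-STRA8 cells by the test. It was at 62, 82.9 and 52 TPM in Stra8-deficient, 32.5 and 30.4 TPM in low-STRA8 and 74.9 and 84.7 TPM in high-STRA8 libraries. The low-STRA8 libraries lay below all others, and high-STRA8 overlapped Stra8-deficient libraries. Ybx2 was 1.81-fold lower in low-STRA8 than in Stra8-deficient cells (log2 fold change -0.86, SE 0.184, adjusted p = 0.0139, edgeR) and 2.38-fold higher in high-STRA8 than in low-STRA8 cells (log2 fold change 1.25, SE 0.199, adjusted p = 0.00262, edgeR). High-STRA8 and Stra8-deficient cells differed by 0.39 on the log2 scale (95% interval -0.01 to 0.80, adjusted p = 0.115, edgeR), a difference that passed the threshold without Stra8-deficient replicate 2 (0.60, adjusted p = 0.0112). Over the libraries, 67.9% to 79.6% of Ybx2 TPM came from the transcript with the most downstream TSS.

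Dnd1, needed for survival of early germ cells, went the other way. It was at 62.9, 54.8 and 74.9 TPM in Stra8-deficient, 44.6 and 58.8 TPM in low-STRA8 and 16.1 and 13.7 TPM in high-STRA8 libraries. Both high-STRA8 libraries lay far below the others, and low-STRA8 overlapped Stra8-deficient libraries. Dnd1 was 4.09-fold lower in high-STRA8 relative to Stra8-deficient cells (log2 fold change -2.03, SE 0.216, adjusted p = 0.000314, edgeR) and 3.79-fold lower than in low-STRA8 cells (log2 fold change -1.92, SE 0.227, adjusted p = 0.000984, edgeR), and both calls held in each of the 16 alternatives. The counts behind them were 1187 to 1546, 973 to 1246 and 260 to 326 per library in the Stra8-deficient, low- and high-STRA8 groups. Markers of differentiating spermatogonia, the cells before the preleptotene stage (5 of 5 over 1 TPM), summed to 1274, 1482 and 1231 TPM in Stra8-deficient, 1017 and 1104 TPM in low-STRA8 and 1012 and 942 TPM in high-STRA8 libraries. Of these markers, Dmrtb1 was at 219 to 265, 152 and 192, and 114 and 105 TPM and Sohlh1 at 183 to 205, 143 and 158, and 113 and 115 TPM in the same order, both lowest in the high-STRA8 libraries as Dnd1 was. Kit was at 454 to 711, 390.4 and 393, and 489.7 and 448 TPM, lowest in the low-STRA8 libraries. Sohlh2 was at 292 to 338, 328 and 359.8, and 293 and 273 TPM. Nanos3 was at 2.68 to 4.53, 3.41 and 1.16, and 1.84 and 1.4 TPM. For Sohlh2 and Nanos3 the high-STRA8 libraries overlapped those of another group. The sums for undifferentiated spermatogonia were 78.6 to 94.6, 35.6 to 37.7 and 40.1 to 44.6 TPM. The part of either cell type in the Dnd1 result was not tested.

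Within Stra8+/- mice, low-STRA8 cells are the earlier stage and high-STRA8 cells the later one. In that comparison 4 of the 8 genes were higher in high-STRA8 cells (Meioc, Ythdc2, Dazl and Ybx2), against 21.3% of all genes tested, and Dnd1 was lower, against 18.3%. The libraries of the 2 groups did not overlap for any of the 8, with 6 higher and 2 lower in high-STRA8 cells, against 44.1% and 30.4% of all genes. Against Stra8-deficient cells, 5 were higher in both high-STRA8 libraries and 2 lower, against 27.9% and 39.3% of all genes. With so few libraries, separation of this kind was common among all genes.

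Low-STRA8 and Stra8-deficient cells, both before initiation, differed in fewer of the 8 genes. These groups also differ in Stra8 genotype, which cannot be told apart here from any difference in stage. Boll was higher and Ybx2 lower, against 10.2% and 13.9% of all genes, and their libraries alone did not overlap, against 12.1% higher and 39.4% lower of all genes. For Meioc the log2 fold change was 0.46 (95% interval 0.07 to 0.86, adjusted p = 0.0876, edgeR), and it passed the threshold with DESeq2 (adjusted p = 0.0322) or without Stra8-deficient replicate 1 (adjusted p = 0.0265, edgeR). The other 5 had log2 fold changes between -0.11 and 0.14 and did not pass the threshold, except that Rbm46 did without Stra8-deficient replicate 1 (adjusted p = 0.0495, edgeR). For Ythdc2, Rbm46, Dazl and Cpeb1 the mean TPM was lower in low-STRA8 than in Stra8-deficient cells while the fitted log2 fold change was above 0. TPM and edgeR scale the libraries differently, and the median of all genes was -0.15 on the log2(TPM + 1) scale and 0.03 in the edgeR fit. The 3 comparisons share their groups, so their results are not independent.

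**Figure D3:**
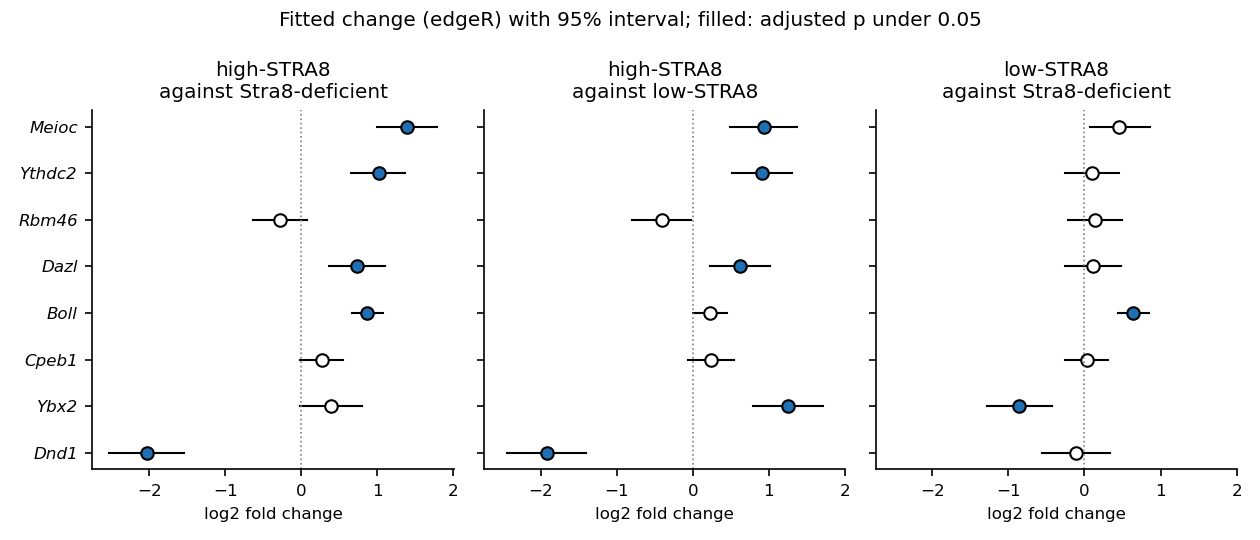
Log2 fold change from edgeR of each of the 8 genes in the 3 comparisons, with 95% intervals as bars; filled points passed the adjusted threshold of 0.05 and open points did not. Meioc, Ythdc2 and Dazl are above 0 in both comparisons of high-STRA8 cells (0.62 to 1.39), Dnd1 is at -2.03 and -1.92 there and -0.11 between low-STRA8 and Stra8-deficient cells, and Ybx2 changes side between comparisons.

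Ranged beside STRA8 binding, the 4 genes that rose against Stra8-deficient cells were all bound, the 3 that did not pass the threshold (Rbm46, Cpeb1 and Ybx2) were bound too, and Dnd1, the gene that fell, was not. Over all genes, 47.6% of the 2767 bound genes tested were higher in high-STRA8 relative to Stra8-deficient cells, 44% were higher in high-STRA8 than in low-STRA8 cells and 20.2% were higher in low-STRA8 than in Stra8-deficient cells. Summit score ordered the bound genes by change only in part. In library 1, Meioc, Boll and Dazl scored highest, at 134, 80.7 and 78.4. Their log2 fold changes against Stra8-deficient cells were 1.39, 0.87 and 0.73. Cpeb1, Rbm46 and Ybx2 scored 31.3, 29.4 and 18.2 there, with log2 fold changes of 0.27, -0.28 and 0.39. Ythdc2 departed from this order, since with scores of 17.5 and a summit in 2 libraries it rose 2.02-fold. The relation was not tested.

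The 8 genes were also set beside 94 other regulators of mRNA translation, modification and decay, in 5 lists. Of these, 27 were higher (28.7%) and 12 lower (12.8%) in high-STRA8 relative to Stra8-deficient cells, against 18.8% and 18.3% of all genes, with a median log2 fold change of 0.07 against -0.02 for all genes. Those counts were 16 and 5 without high-STRA8 replicate 1, and 4 were lower without high-STRA8 replicate 2. Between high- and low-STRA8 cells 30 were higher (31.9%) and 10 lower (10.6%), against 21.3% and 18.3% of all genes, with a median of 0.19 against 0.00. There the counts were 14 and 2 without high-STRA8 replicate 1 and 13 and 0 without high-STRA8 replicate 2 (8 were lower by edgeR at an unadjusted p under 0.05), and 3 were lower without low-STRA8 replicate 2. Between low-STRA8 and Stra8-deficient cells 5 were higher (5.32%) and 15 lower (16%), against 10.2% and 13.9% of all genes, and over the alternatives 1 to 9 were higher and 8 to 26 lower. STRA8 bound 46 of the 94 (48.9%), against 22.5% of expressed genes.

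**Figure D4:**
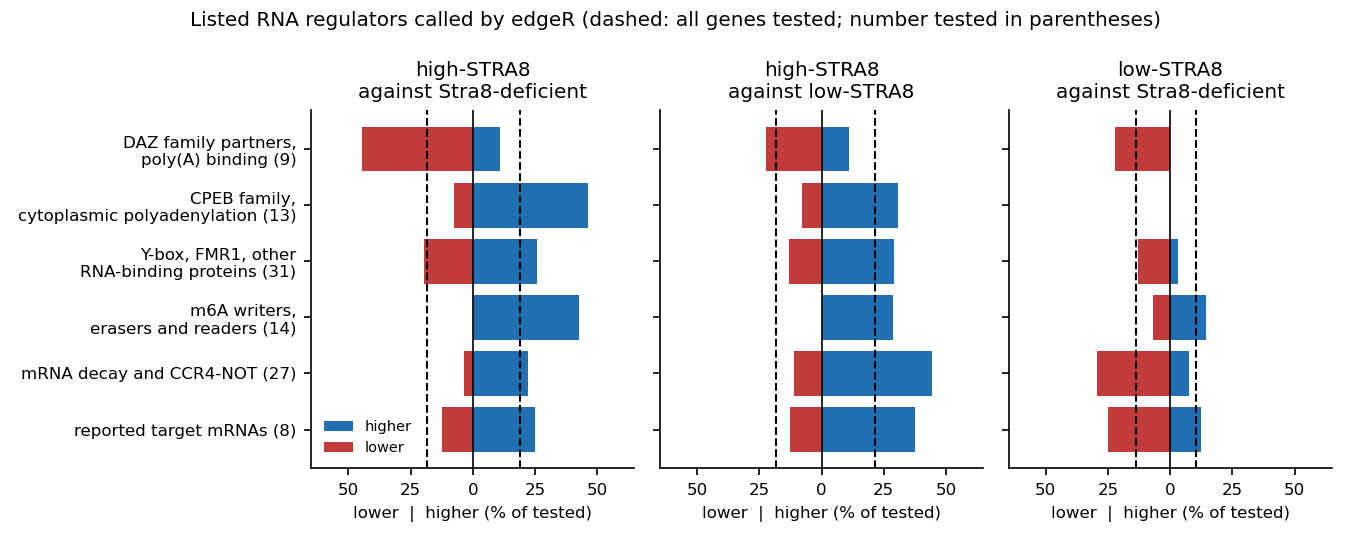
Percent of each list of RNA regulators that was higher or lower by edgeR in the 3 comparisons, beside the percent of all 12464 genes. Of the m6A list, 42.9% were higher and 0% lower in high-STRA8 against Stra8-deficient cells (18.8% and 18.3% of all genes). Of the decay list, 44.4% were higher and 11.1% lower in high-STRA8 against low-STRA8 cells (21.3% and 18.3% of all genes). In that comparison fold changes of all genes moved with transcript length, and its part was not tested.

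Of 14 writers, erasers and readers of N6-methyladenosine (m6A), the mark that YTH domain proteins bind, 6 were higher (42.9%, against 18.8% of all genes) and none lower (against 18.3%) in high-STRA8 relative to Stra8-deficient cells, with a median log2 fold change of 0.36. By edgeR 1 of them was lower at an unadjusted p under 0.05, DESeq2 also called 0 lower, and limma on log2(TPM + 1) called 2. The methyltransferase subunit Mettl14 rose from 69.4 ± 2.16 TPM (SD, n = 3) to 116 ± 1.15 TPM (SD, n = 2), which is 0.84 on the log2 scale (adjusted p = 0.000205, edgeR). The eraser Alkbh5 rose by 0.70 (adjusted p = 0.000708) and the writer subunit Zc3h13 by 0.71 (adjusted p = 0.00212) on the log2 scale by edgeR. The catalytic subunit Mettl3 was at 79.8 to 82.5 TPM in Stra8-deficient and 61.3 and 61.7 TPM in high-STRA8 libraries (log2 fold change -0.32, adjusted p = 0.0586, edgeR). The nuclear reader Ythdc1 was at 129, 122 and 97.7 TPM in Stra8-deficient, 69.6 and 79.5 TPM in low-STRA8 and 135 and 134 TPM in high-STRA8 libraries. It was lowest in low-STRA8 cells, with log2 fold changes of -0.43 against Stra8-deficient cells (adjusted p = 0.0346, edgeR, a call lost in 7 of 16 alternatives, among them leaving out any 1 of 5 libraries) and 0.73 between high- and low-STRA8 cells (adjusted p = 0.00389, edgeR), and did not pass between high-STRA8 and Stra8-deficient cells (0.31, adjusted p = 0.073, edgeR).

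Of 13 genes of the CPEB family and cytoplasmic polyadenylation, 6 were higher (46.2%, against 18.8% of all genes) and 1 was lower (7.69%, against 18.3%) in high-STRA8 relative to Stra8-deficient cells. Cpeb4, a paralog of Cpeb1, stood at 15.7, 9.68 and 13.7 TPM in Stra8-deficient, 19.8 and 13.7 TPM in low-STRA8 and 44.1 and 42.9 TPM in high-STRA8 libraries. It rose 3.76-fold (log2 fold change 1.91, adjusted p = 0.000593, edgeR). No FLAG/FLAG library had a summit within 1 kb of a protein-coding TSS of Cpeb4. Cpeb2 and Cpeb3 were also higher, by 0.52 (adjusted p = 0.02) and 0.85 (adjusted p = 0.00338) on the log2 scale by edgeR, and both were bound. The call of Cpeb2 was lost in 6 of 16 alternatives, without either high-STRA8 replicate among them, and that of Cpeb3 without high-STRA8 replicate 1. Tacc3, which encodes a spindle protein linked to CPEB in other cells, rose by 1.06 (adjusted p = 0.000162) and the 4E-transporter gene Eif4enif1 by 0.50 (adjusted p = 0.00326). The deadenylase gene Parn fell by 0.46 (adjusted p = 0.00774), a call lost without either high-STRA8 replicate.

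Of 9 DAZ family partners and poly(A)-binding genes, 1 was higher (11.1%, against 18.8% of all genes) and 4 were lower (44.4%, against 18.3%) in high-STRA8 relative to Stra8-deficient cells. Dazap2, named for its binding to DAZ proteins, rose by 0.86 on the log2 scale (adjusted p = 0.000667, edgeR). Pabpc4, a cytoplasmic poly(A)-binding protein, fell by 0.86 (adjusted p = 0.000677, edgeR), and its log2 fold change between low-STRA8 and Stra8-deficient cells was -0.55 (adjusted p = 0.0103, edgeR). Nanos1 fell by 0.66 (adjusted p = 0.00928, edgeR), a call lost without either high-STRA8 replicate.

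Of 31 Y-box, FMR1 and other germ-cell RNA-binding proteins, 8 were higher (25.8%, against 18.8% of all genes) and 6 lower (19.4%, against 18.3%) in high-STRA8 relative to Stra8-deficient cells. Fmr1, the fragile X translational repressor, was at 161, 112 and 92.2 TPM in Stra8-deficient, 109.9 and 93.5 TPM in low-STRA8 and 268 and 302 TPM in high-STRA8 libraries. It rose 2.5-fold (log2 fold change 1.32, adjusted p = 0.0011, edgeR), and its paralog Fxr2 rose by 0.68 (adjusted p = 0.000979, edgeR) on the log2 scale, while the value for Fxr1 was -0.06 (adjusted p = 0.648, edgeR). Igf2bp3, an mRNA-binding protein of early germ cells, was 2.26-fold lower (adjusted p = 0.0005, edgeR) and was lower in low-STRA8 cells too (log2 fold change -0.91, adjusted p = 0.00406, edgeR). Zfp36l1, a decay-promoting protein, fell by 1.16 (adjusted p = 0.00251, edgeR). Ybx1 and Ybx3, paralogs of Ybx2, had log2 fold changes of -0.13 (adjusted p = 0.537) and -0.58 (adjusted p = 0.0142) by edgeR, and the call of Ybx3 was lost without Stra8-deficient replicate 3 or either high-STRA8 replicate.

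Of 27 genes of mRNA decay and the CCR4-NOT deadenylase, 6 were higher (22.2%, against 18.8% of all genes) and 1 was lower (3.7%, against 18.3%) in high-STRA8 relative to Stra8-deficient cells. Cnot9 rose from 67.7, 69.8 and 61.6 TPM in Stra8-deficient to 102 and 84.8 TPM in low-STRA8 and 124 and 125 TPM in high-STRA8 libraries, with log2 fold changes of 0.99 (adjusted p = 0.000178) for high-STRA8 and 0.68 (adjusted p = 0.00283) for low-STRA8 against Stra8-deficient cells by edgeR. The nonsense-mediated decay genes Smg1, Upf1 and Upf2 were lowest in low-STRA8 cells, as Ybx2 was. Smg1 was at 35.5, 33.1 and 17.8 TPM in Stra8-deficient, 6.72 and 6.23 TPM in low-STRA8 and 41.8 and 52.8 TPM in high-STRA8 libraries. Between high- and low-STRA8 cells the 3 genes differed by 2.78 (adjusted p = 0.000722), 1.13 (adjusted p = 0.00154) and 1.27 (adjusted p = 0.00172) on the log2 scale by edgeR. All 3 lie in the longest length class, whose median was 0.42 in that comparison and -0.38 between low-STRA8 and Stra8-deficient cells, and the part of length in this was not tested.

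Of 8 tested mRNAs that have been described as targets of the 8 proteins, 2 were higher (25%, against 18.8% of all genes) and 1 was lower (12.5%, against 18.3%) in high-STRA8 relative to Stra8-deficient cells. STRA8 bound 5 of these 8 genes (62.5%, against 22.5% of expressed genes), among them Sycp3, Sycp1 and Ccna2. The part of STRA8 binding or of the 8 proteins in these mRNA levels was not tested. Sycp3, a synaptonemal complex component whose translation depends on CPEB1 and DAZL, was at 1136, 975 and 585 TPM in Stra8-deficient, 899 and 709 TPM in low-STRA8 and 1980 and 2204 TPM in high-STRA8 libraries, which is 1.29 on the log2 scale (adjusted p = 0.0027, edgeR). Sycp1, of the same complex, was 1.39 higher on the log2 scale in high-STRA8 than in low-STRA8 cells (adjusted p = 0.00492, edgeR) and stood 0.49 from Stra8-deficient cells (adjusted p = 0.135, edgeR). Ccna2, the cyclin that MEIOC and YTHDC2 are known to lower, was at 70.9, 67 and 62.9 TPM in Stra8-deficient, 75.8 and 50.5 TPM in low-STRA8 and 83.8 and 84.7 TPM in high-STRA8 libraries. Its level was highest in the high-STRA8 libraries, where Meioc and Ythdc2 were highest, and the difference of 0.41 from Stra8-deficient cells on the log2 scale had an adjusted p of 0.049 by edgeR, a call that was lost in 9 of 16 alternatives. Lats2, a kinase whose mRNA DND1 has been described to shield from microRNAs, fell by 1.05 on the log2 scale in high-STRA8 cells (adjusted p = 0.000233, edgeR) and was lower in low-STRA8 cells as well (-0.94, adjusted p = 0.00176, edgeR). Cdkn1b, of the same list, went the other way, by 1.04 between high-STRA8 and Stra8-deficient cells (adjusted p = 0.0636, edgeR). It was 1.25 higher in high-STRA8 than in low-STRA8 cells (adjusted p = 0.0494, edgeR), a call lost in 9 of 16 alternatives. Its level was 1.8 to 9.97 TPM over the libraries.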

How the data were processed

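The authors quantified RNA-seq reads with kallisto 0.43.0 and deposited, for each transcript, estimated counts, an effective length and TPM, and, for each gene, TPM rescaled over protein-coding genes. They also deposited a normalized signal per gene (estimated counts over the normalization factors of DESeq2 1.18.1), used here only to check direction. ChIP-seq reads were aligned by the authors to mm10 with Bowtie 1.2.0 and SAMtools 1.3.1, and summits, each with a deposited -log10 p score, were called per library against input with MACS2 2.1.1.20160309.

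Here, transcripts were joined to genes with GENCODE M21 (12464 of 12545 genes over 1 TPM in at least 1 library; 81 were left out). Gene sums of the counts, rounded, were fitted with edgeR 4.0.16 (TMM, robust quasi-likelihood F test, R 4.3.3) in 1 fit over 7 libraries, with Benjamini-Hochberg adjustment and a threshold of 0.05. Fold changes come from this fit and levels are TPM, mean ± SD; intervals are 95%. The fits were tested on simulated data. Alternatives used DESeq2 1.42.0, limma 3.58.1 on log2(TPM + 1), other scalings and filters, a replicate block and leaving out each library. Replicates differed by more than sampling noise (chi-square per degree of freedom 9.13 to 37.8).

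The 8 genes and the lists were chosen with earlier results of these data known. Named beside the 8 genes are Stra8, up to 3 genes per list, comparison and direction with the smallest adjusted p, and the 3 genes most like each of the 8, of which 1 is not reported here. The others (Mettl3, Cpeb2, Cpeb3, Fxr1, Ybx1, the other uses of Ybx3, and Ccna2 and Sycp1 where they did not pass) were named after their values were seen, as relatives of the 8 genes or members of their complexes. Single genes of the marker lists were named outside the rule too. Sequences were read from GRCm38 and promoters from RefSeq. No sequence of chromosome 18 was printed.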

Additional observations from a re-analysis of the deposited data

How the results depend on the processing

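The 8 genes gave 384 fold changes over 3 comparisons and 16 alternatives. Of these, 356 kept both direction and side of the threshold, 5 lost the call, 6 gained one and 17 changed sign, all 17 between low-STRA8 and Stra8-deficient cells, in genes that did not pass there. With limma on log2(TPM + 1) and on log2(TPM + 0.1), Ythdc2 went to -0.07 and -0.08, Rbm46 to -0.03 and -0.03, Dazl to -0.05 and -0.05 and Cpeb1 to -0.15 and -0.15. With only genes over 5 TPM, Cpeb1 went to -0.03. With 1 library left out, Ythdc2 ranged from -0.08 (without low-STRA8 replicate 1) to 0.26, Cpeb1 from -0.13 (without low-STRA8 replicate 2; -0.03 without Stra8-deficient replicate 3) to 0.18 and Dnd1 from -0.37 to 0.12 (without low-STRA8 replicate 1; 0.07 without Stra8-deficient replicate 3). The cause of these sign changes was not tested.

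Leaving out 1 library at a time, 3 to 5 of the 8 genes were higher in high-STRA8 relative to Stra8-deficient cells. Between high- and low-STRA8 cells 2 to 4 were higher and 1 to 2 lower, with 2 higher only without high-STRA8 replicate 2. Between low-STRA8 and Stra8-deficient cells 1 to 3 were higher, with 3 only without Stra8-deficient replicate 1, and DESeq2 gave 2. With only the 2 groups fitted, 2 of the 8 were lower in high-STRA8 than in low-STRA8 cells. Of the 94 other regulators, 16 to 33 were higher and 4 to 16 lower in high-STRA8 relative to Stra8-deficient cells with 1 library left out, 13 to 33 higher and 0 to 14 lower than in low-STRA8 cells, and 2 to 7 higher and 9 to 16 lower between low-STRA8 and Stra8-deficient cells, the lowest counts arising without a high-STRA8 library in the first 2. In the last comparison 3 were higher with genes over 5 TPM, 9 with DESeq2, 1 with either limma fit and 1 with 2 groups only, while 26 were lower with either limma fit and 8 with 2 groups only. With limma on log2(TPM + 1), 19 were lower in high-STRA8 relative to Stra8-deficient cells. Over all genes, limma on log2(TPM + 1) called 498 higher and 2712 lower between low-STRA8 and Stra8-deficient cells, against 1266 and 1729 by edgeR. Of the 8 promoters, 7 held the motif in 2 kb, 3 in the 100 bases around a summit and 3 in the RefSeq window.

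Same-numbered libraries deviated from their group means with r from -0.1669 to -0.0268. In a group of 2 libraries the deviations mirror each other, so these values cannot decide whether the replicate numbers pair the libraries. With the replicate number as a block, the log2 fold changes between low-STRA8 and Stra8-deficient cells were -0.01 for Ythdc2, -0.05 for Cpeb1 and 0.05 for Dnd1, 3 other regulators were higher there, and no call of the 8 genes changed. Over all genes the block gave 1834 higher and 1535 lower in high-STRA8 against Stra8-deficient cells, in place of 2348 and 2276. With numbers crossed between the high- and low-STRA8 libraries, an alternative chosen after seeing the data, 2370 genes were higher and 2077 lower against 2068 and 1547 as numbered, with 4 of the 8 genes higher and 2 lower in each.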

Other observations

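For each of the 8 genes, the 3 genes with the most similar pattern were found among 9644 genes that averaged 5 TPM or more, by Pearson's r of log2(TPM + 1) over the 7 libraries. These are descriptions over few libraries in 3 groups, and the highest of many values is high by selection. Meioc was most like Fgfr3 (r = 0.9991), which was at 16.5, 12.9 and 12.8 TPM in Stra8-deficient, 17.2 and 14.4 TPM in low-STRA8 and 25.5 and 27.1 TPM in high-STRA8 libraries, followed by Nampt (r = 0.9980) and Gm15262 (r = 0.9972). Ythdc2 was most like Slf1 (r = 0.9959), Rnf17 (r = 0.9939), which encodes a germ-cell Tudor domain protein, and Spata6 (r = 0.9934). Dazl was most like Papola (r = 0.9960), which encodes the canonical poly(A) polymerase, Vps37a (r = 0.9953) and Ptges3 (r = 0.9949). Boll was most like Btbd10 (r = 0.9949), Med7 (r = 0.9944) and Gjc1 (r = 0.9942).

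Dnd1 was most like Ufsp2 (r = 0.9994), Mtmr9 (r = 0.9986) and Rhbdd1 (r = 0.9983), with smaller changes in TPM. Ufsp2 was at 114 to 122 TPM in Stra8-deficient and low-STRA8 libraries and at 99.3 and 98.4 TPM in high-STRA8 libraries. Ybx2 was most like Zfp956 (r = 0.9951), Dock6 (r = 0.9944) and Pacs2 (r = 0.9940), which were also lowest in both low-STRA8 libraries. The genes most like Rbm46 included Rpl27-ps3 (r = 0.9884), a pseudogene whose reads may be shared with its parent gene, and Wdfy1 (r = 0.9840). Cpeb1 was most like Cdon (r = 0.9831), Naa16 (r = 0.9765) and Cdadc1 (r = 0.9727). Among the 8 genes themselves, the closest pair was Ythdc2 and Dazl (r = 0.974), and Meioc was nearest to Ythdc2 (r = 0.95), whereas Rbm46 was nearest to Dnd1 (r = 0.619).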
